A study of Mus musculus with 8 samples.

Results

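The crypt stem cell and Wnt target genes described here are 10 genes chosen by name for their known roles in the intestinal crypt: Lgr5, Ascl2, Axin2, Smoc2, Ephb2, Ephb3, Rnf43, Sox9, Myc and Ccnd1. The rule that names them uses no measured value, although earlier results of these data were known when it was set, and all 10 were found among the 14247 genes of the table. They were measured by bulk RNA sequencing of colonic crypts from wild-type mice, taken at 4 zeitgeber times (ZT), ZT0, ZT6, ZT12 and ZT18. Lights come on at ZT0 and go off at ZT12. Each time point had 2 libraries, called replicate 1 and replicate 2, so that 8 libraries were analysed. The 4 groups shared every other labelled property: genotype WT and, per the methods, a C57BL/6 background, an age of 2 to 4 months and a cycle of 12 h light and 12 h dark. Sex is not given. The captions of the study count more mice in each group than the 2 libraries analysed here, and no label ties a library to a mouse, so the p-values measure the spread between these libraries, part of which may be technical.

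Epithelial stem cells sit at the base of the crypt and renew the lining of the colon. Wnt ligands bind Frizzled and Lrp receptors on these cells, the destruction complex is held back, and β-catenin enters the nucleus, where it acts with TCF/LEF factors on target genes. Several of the targets feed back on the pathway: AXIN2 is a scaffold of the destruction complex, and RNF43 is a membrane ubiquitin ligase that removes Frizzled receptors from the cell surface. LGR5 is a receptor for R-spondins, secreted proteins that relieve this removal. EPHB2 and EPHB3 are receptors that keep cells in place along the crypt axis, and Sox9, Myc and Ccnd1 act in progenitor identity, growth and entry into the cell cycle.

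Values are normalised counts, that is, reads per gene divided by 1 size factor per library. Between genes, levels were compared per kb of exon length, taken over all annotated exons of a gene. On that scale Sox9 was the most abundant of the 10, with a mean of 309.9 normalised counts per kb, above 80.3% of the 13503 genes tested. Myc followed with 144 per kb, and Ephb2, Rnf43, Ccnd1 and Ephb3 lay close together at 106, 104, 102 and 100.2 per kb. Axin2 had 79.1, Smoc2 70.4 and Ascl2 51.9 per kb, and Lgr5, the best known marker of the crypt base stem cell, was the lowest at 11.2 per kb, above 14.4% of the genes tested. The lowest Sox9 library (209.9 per kb) was above the highest Myc library (199 per kb), and the highest Lgr5 library (21.1 per kb) was below the lowest Ascl2 library (33.7 per kb). The genes between these ends overlapped with their neighbours from library to library. The order rests on the division by exon length. By mean normalised counts Ephb2 (1333) was above Sox9 (1281), and Lgr5 (115) was above Ascl2 (84.2). Reads per gene and library ran from 64 for Lgr5 or Ascl2 to 2334 for Sox9, so that no member was near the limit of detection.

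Upstream sequences are given for Rnf43 and Ephb3, because the fitted peaks of these genes, both at the cell membrane and both Wnt targets, lay at different times of the day. RefSeq start sites were available for 5 of the 10 members (Ascl2, Axin2, Ephb2, Ephb3 and Rnf43, the last with a pair of starts). The 250 bases upstream of the first Rnf43 start lie at chr11:87662837-87663086 on the plus strand of GRCm38.p6 and are 44.4% G or C. Those upstream of Ephb3 lie at chr16:21204545-21204794 on the plus strand and are 65.6% G or C. Both are upstream of the RefSeq starts only. In the GENCODE M21 annotation Rnf43 starts at 87662722, so its whole stretch lies inside the annotated gene. Ephb3 starts at 21204755 there, so the end of its stretch does too.
Rnf43: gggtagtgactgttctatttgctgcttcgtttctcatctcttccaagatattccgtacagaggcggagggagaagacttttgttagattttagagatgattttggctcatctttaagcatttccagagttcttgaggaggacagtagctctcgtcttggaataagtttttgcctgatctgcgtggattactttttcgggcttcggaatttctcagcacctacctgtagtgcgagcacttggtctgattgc
Ephb3: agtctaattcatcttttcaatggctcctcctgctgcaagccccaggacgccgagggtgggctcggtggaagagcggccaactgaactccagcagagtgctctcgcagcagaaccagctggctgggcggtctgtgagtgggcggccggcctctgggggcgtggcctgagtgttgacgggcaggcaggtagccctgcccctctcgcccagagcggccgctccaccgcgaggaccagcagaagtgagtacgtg
Neither core of the TCF/LEF binding motif, CTTTGA or CTTTGT, and no E-box CACGTG, the motif bound by CLOCK and BMAL1, was found on either strand in the 6 windows of these 5 genes, each from 250 bases before to 50 after a start. Of all 32851 such windows, 31.2% held at least 1 TCF/LEF core and 7.15% held CACGTG. Sites outside these windows were not searched.

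None of the 10 genes passed the limma test for a change over the day, while DESeq2, run as an alternative, called Rnf43. Rnf43 was highest at ZT12, Myc was lowest at ZT12, Ephb3 was highest at ZT0, and Axin2 had its lowest mean at ZT18, where its libraries overlapped those of ZT12. Lgr5, Ascl2, Smoc2, Sox9 and Ccnd1 differed by about as much between the libraries of 1 time point as between time points. In the limma fit of a 24 h cosine, 0 of 10 members were called at an adjusted p under 0.05, where 0.118% of all genes were. At an unadjusted p under 0.05 there were 3 of 10, Rnf43, Ephb3 and Myc, against 9.15% of all genes. The F-test over the 4 time points gave 0 of 10 against 0.0889%, and the same 3 genes at an unadjusted p under 0.05, against 7.03%.

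**Figure D1:**
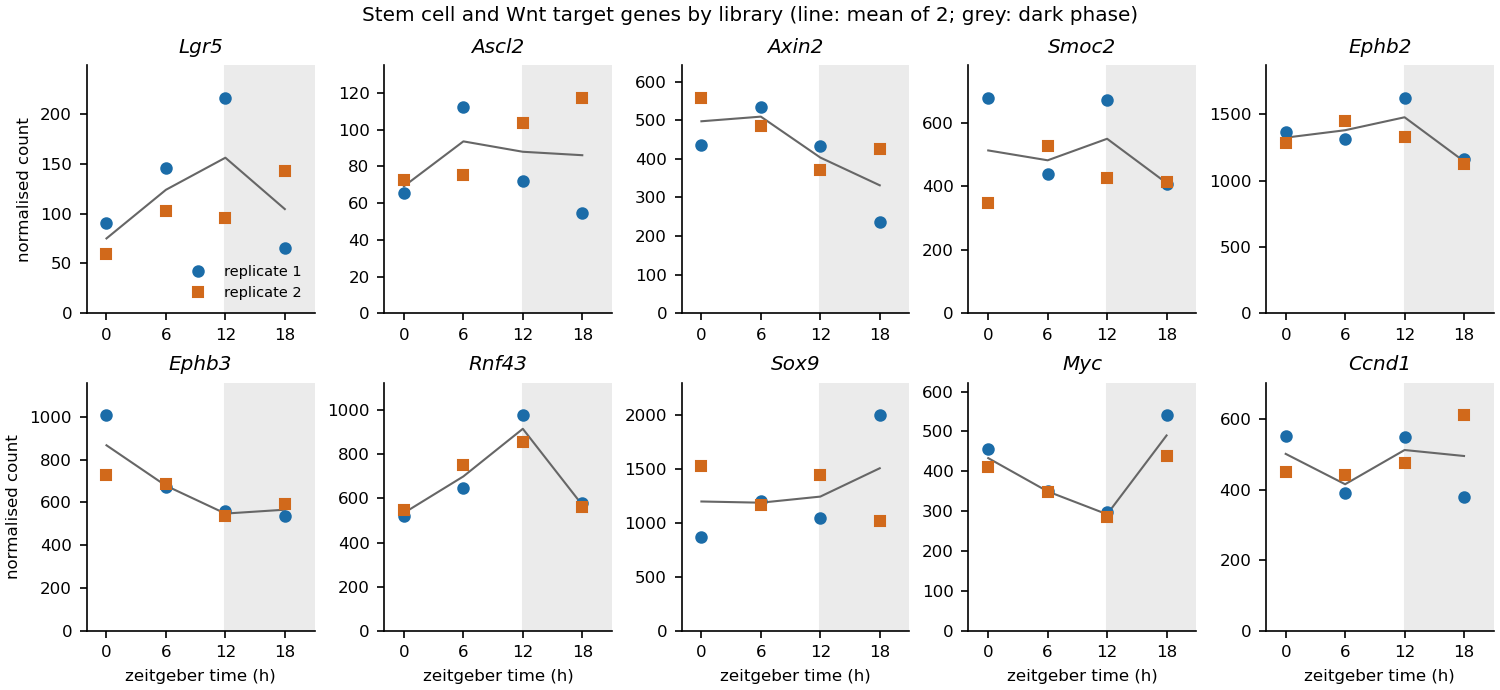
Normalised counts of the 10 genes (y axis, from 0, scaled per gene) against zeitgeber time in hours (x axis). Circles are replicate 1, squares replicate 2, and the line joins the means of the 2 libraries. Rnf43 lies between 853 and 977 at ZT12 and between 518 and 751 elsewhere, whereas the replicates of Lgr5, Ascl2 and Sox9 at ZT18 lie about 2-fold apart.

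The stem cell markers varied widely between replicates, Lgr5 more than any other of the 10 genes. Lgr5 lies at chr10:115450311-115587780 on the minus strand of GRCm38 (GENCODE M21). In Lgr5 the ZT0 libraries had 90.4 and 59.7 normalised counts, those of ZT6 145 and 102, those of ZT12 216 and 95.7, and those of ZT18 65.8 and 143 (replicate 1 first, as in each list of values). Both ZT0 libraries lay below both ZT6 and both ZT12 libraries, while the ZT18 libraries differed 2.18-fold from each other. Lgr5 had the largest cosine amplitude of the 10 genes, 0.51 ± 0.25 (SE, log2), and also the largest replicate spread, an SD of 0.63 within time points on the log2 scale, so that its adjusted p was 0.651. From ZT0 to ZT12 the estimate was +0.96 ± 0.52 (SE, log2; adjusted p = 0.557), with a 95% interval of the fold from 0.867 to 4.37. Without ZT12 replicate 1 the estimate was 0.38, and without ZT12 replicate 2 it was 1.55. The size of the Lgr5 estimate therefore rested on which ZT12 library was used.

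Ascl2 (chr7:142966829-142969264, minus strand) encodes a transcription factor of crypt base stem cells. In Ascl2 the ZT0 libraries had 65.6 and 72.8 normalised counts, those of ZT6 112 and 75.1, those of ZT12 72.1 and 104, and those of ZT18 54.7 and 117. The lowest and the highest of its 8 values were both from ZT18, 2.15-fold apart. Its amplitude was 0.19 ± 0.22 (SE, log2; adjusted p = 0.899). The ratio of Ascl2 to Lgr5 differed between replicates, with 0.73 Ascl2 counts per Lgr5 count in ZT0 replicate 1, 1.22 in ZT0 replicate 2, 0.33 in ZT12 replicate 1 and 1.08 in ZT12 replicate 2.

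Smoc2 (chr17:14279506-14404790, plus strand) encodes a secreted matrix protein and is a stem cell signature gene. In Smoc2 the ZT0 libraries had 680.4 and 347 normalised counts, those of ZT6 439 and 527, those of ZT12 673 and 428, and those of ZT18 408 and 413. The ZT0 libraries differed 1.96-fold and held both the highest and the lowest value, while the ZT18 libraries differed 1.01-fold. Its amplitude was 0.13 ± 0.16 (SE, log2; adjusted p = 0.904). The ZT12 against ZT0 estimate of +0.14 changed sign with the library: it was -0.34 without ZT0 replicate 2, -0.18 without ZT12 replicate 1 and -0.67 without both.

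Among the feedback genes, Rnf43 had the smallest p of the 10. It lies at chr11:87662722-87735539 on the plus strand. In Rnf43 the ZT0 libraries had 518 and 549 normalised counts, those of ZT6 648 and 751, those of ZT12 977 and 853, and those of ZT18 577 and 563. Both ZT12 libraries were above all 6 others, both ZT6 libraries were second, and both ZT0 libraries were lowest. The means were 534 ± 21.9, 699 ± 72.6, 915 ± 87.3 and 569.9 ± 9.72 (SD, n = 2 each). Rnf43 also had the smallest replicate spread of the 10 genes, an SD of 0.11 (log2), below that of all but 6.07% of the genes tested. Its amplitude was 0.41 ± 0.09 (SE, log2) with a fitted peak at 10.6 h (limma adjusted p = 0.368), and 0.941% of the genes tested had a smaller unadjusted p.

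The estimate for Rnf43 from ZT0 to ZT12 was +0.77 ± 0.18 (SE, log2), or 1.71-fold with a 95% interval of 1.29 to 2.27 (limma adjusted p = 0.310). From ZT12 to ZT18 it was -0.68 ± 0.18 (adjusted p = 0.514). Leaving out each library in turn gave 0.68 to 0.87 for ZT12 against ZT0. The call depended on the tool: DESeq2 on the recovered reads gave Rnf43 an adjusted p of 0.0309 for the cosine and 0.0454 for ZT12 against ZT0, where it called 1.36% and 1.00% of all genes. edgeR called 0 members in either, and 0.0889% and 0.0370% of all genes. In an exact rank test against cosine orders, 2-sided, Rnf43 reached p = 0.01905, the smallest that 8 libraries allow, with an adjusted p of 0.877. At an unadjusted p under 0.05 there was 1 of 10 members, against 278 genes (2.06%) in all. Axin2, Ephb3 and Myc had p = 0.114 in this exact test, the smallest that an order with its peak between the sampled times can give.

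Axin2 (chr11:108920349-108950783, plus strand) is the feedback gene most often read as a reporter of Wnt activity. In Axin2 the ZT0 libraries had 436 and 559 normalised counts, those of ZT6 535 and 484, those of ZT12 434 and 372, and those of ZT18 238 and 425. All 4 ZT0 and ZT6 libraries were above all 4 ZT12 and ZT18 libraries, with 436 in ZT0 replicate 1 close to 434 in ZT12 replicate 1. Axin2 and Rnf43 thus differed in their order: Axin2 was higher at ZT0 than at ZT12 by its mean, 497 ± 86.7 against 403 ± 43.9 (SD, n = 2), and Rnf43 was lower. The amplitude of Axin2 was 0.37 ± 0.14 (SE, log2) with a fitted peak at 4.43 h (adjusted p = 0.570). The estimates of ZT18 against ZT6 and ZT0 were -0.68 ± 0.29 (adjusted p = 0.741) and -0.63 ± 0.29 (adjusted p = 0.983). They rested on ZT18 replicate 1, without which they were -0.26 and -0.21, the amplitude was 0.20 and ZT18 against ZT12 turned from -0.34 to +0.081. An antisense gene, Gm11670, overlaps exons of Axin2. Whether strand was used in the counting is not stated, so reads from the shared stretch could not be told apart.

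**Figure D2:**
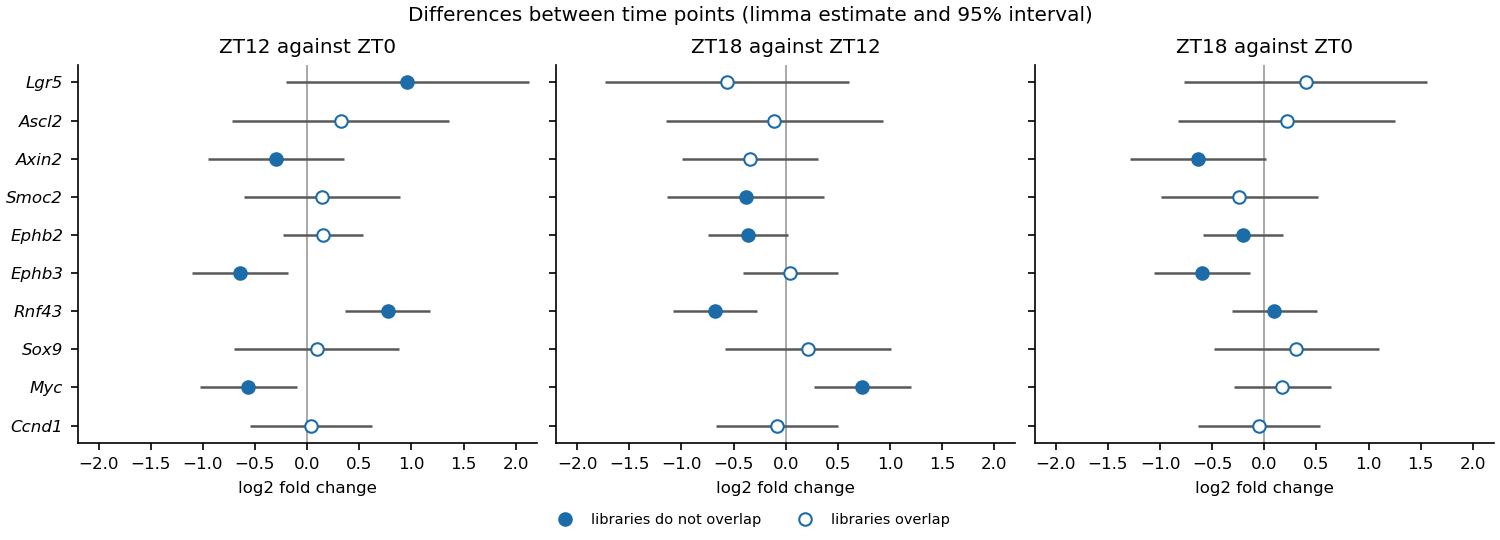
Log2 fold changes between time points (x axis) of the 10 genes (y axis), with 95% intervals from the limma fit as lines. Filled circles mark genes whose libraries do not overlap between the 2 time points. Of ZT12 against ZT0, Rnf43 (+0.77), Ephb3 (-0.64) and Myc (-0.56) have intervals that leave out 0.

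The Eph receptors, both Wnt targets, had different profiles. In Ephb2 (chr4:136647539-136835988, minus strand) the ZT0 libraries had 1368 and 1283 normalised counts, those of ZT6 1312 and 1450.2, those of ZT12 1627 and 1330.5, and those of ZT18 1166 and 1127. Both ZT18 libraries were the lowest, and the whole range was 1.44-fold, the narrowest of the 10 genes. The estimate of ZT18 against ZT12 was -0.36 ± 0.17 (SE, log2; adjusted p = 0.569), and its amplitude was 0.15 ± 0.09 (adjusted p = 0.698). Over the 8 libraries Ephb2 had a Pearson r of 0.90 with the endothelial marker list, as a description, since the points share their library and size factor. That list had 3 tested genes, and only Pecam1 was lowest in both ZT18 libraries (24.8 and 26.5 normalised counts, 90.4 to 271 elsewhere). Vwf had 74.3 in ZT18 replicate 1 but 65.7 in ZT12 replicate 2, and Esam 17.7 in ZT18 replicate 2 but 15.0 in ZT12 replicate 2. The 4 markers in the table summed to 99.1 and 66.0 normalised counts at ZT18 and 175 to 447 elsewhere. The part of endothelial markers in the Ephb2 values was not tested.

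In Ephb3 (chr16:21204755-21223305, plus strand) the ZT0 libraries had 1008 and 727 normalised counts, those of ZT6 673 and 684, those of ZT12 558 and 538, and those of ZT18 537 and 595. Both ZT0 libraries were above the 6 others, and both ZT6 libraries were above the 4 of ZT12 and ZT18, which overlapped. Its amplitude was 0.35 ± 0.10 (SE, log2) with a fitted peak at 1.48 h (limma adjusted p = 0.494). The estimates against ZT0 were -0.64 ± 0.20 at ZT12 (adjusted p = 0.388) and -0.60 ± 0.20 at ZT18 (adjusted p = 0.921). Without ZT0 replicate 1, the highest library, they were -0.41 and -0.36.

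ZT0 replicate 1 was also the library highest in genes of proliferating cells, with a median log2 deviation of 0.57 over 16 genes, against -0.21 to 0.13 in the others. Of these 16 genes, 0 were called in any comparison, where limma called 0.118% of all genes in the cosine fit and 0.0667% for ZT12 against ZT0. At an unadjusted p under 0.05 there were 11 of 16 in the cosine fit, against 9.15% of all genes, and 8 of 16 for ZT12 against ZT0, against 9.96%. From ZT0 to ZT12, 15 had a negative estimate (median -0.68). From ZT0 to ZT18, 11 were lower and 5 higher (median -0.50). Mcm2, Mcm3 and Mcm6 were higher in both ZT18 libraries than in all other libraries (Mcm6 1234 and 1071 against 585 to 977). The list thus pooled genes with different profiles. Over the 8 libraries Ephb3 and this list had an r of 0.83, and its part in the Ephb3 values was not tested. In bulk samples such as these, fewer cells of a type and less RNA per cell cannot be told apart.

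Myc had the profile most opposed to that of Rnf43. Myc (chr15:61985391-61990374, plus strand) encodes a transcription factor of growth and is a classical Wnt target. Its ZT0 libraries had 456 and 410.4 normalised counts, those of ZT6 351 and 348, those of ZT12 299 and 286, and those of ZT18 541 and 439. Both ZT12 libraries were the lowest, both ZT6 libraries came next, and the ZT0 and ZT18 libraries overlapped at the top. The means were 433 ± 32.2, 349.6 ± 2.12, 292 ± 9.02 and 490.0 ± 71.9 (SD, n = 2 each). The amplitude was 0.37 ± 0.11 (SE, log2) with a fitted peak at 21.3 h (limma adjusted p = 0.494). The estimate was -0.56 ± 0.21 from ZT0 to ZT12 (adjusted p = 0.443) and +0.74 ± 0.21 from ZT12 to ZT18 (adjusted p = 0.514), where the 95% interval of the fold ran from 1.21 to 2.30. The latter ranged from 0.59 to 0.89 when each library was left out in turn.

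The ratio of Rnf43 to Myc within a library was chosen after their values were seen and does not depend on the size factor. Its ZT0 libraries had 1.14 and 1.34, those of ZT6 1.85 and 2.16, those of ZT12 3.27 and 2.98, and those of ZT18 1.07 and 1.28. For the ratio of Ephb2 to Ephb3 the ZT0 libraries had 1.36 and 1.77, those of ZT6 1.95 and 2.12, those of ZT12 2.92 and 2.47, and those of ZT18 2.17 and 1.89. In both ratios the ZT12 libraries were the highest. Because these pairs were selected for their opposed values, the ratios are a description and carry no test.

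**Figure D3:**
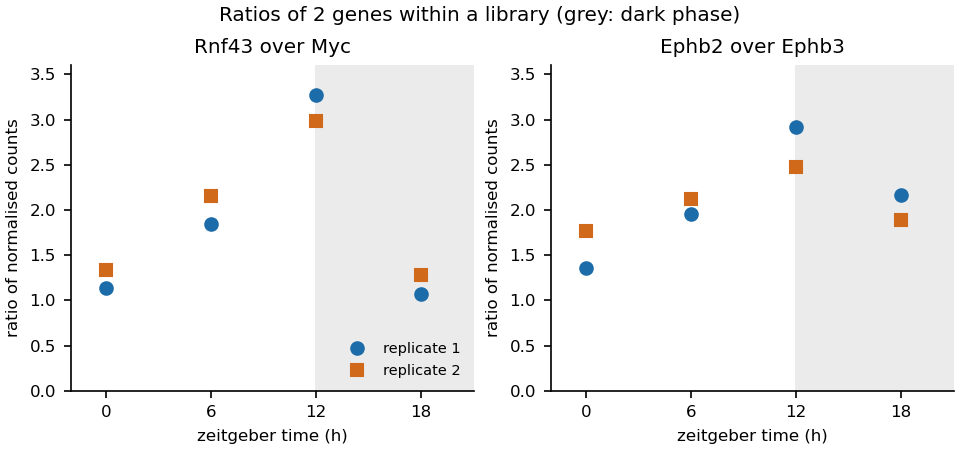
Ratio of normalised counts within a library (y axis, from 0) against zeitgeber time in hours (x axis) for Rnf43 over Myc and Ephb2 over Ephb3. Circles are replicate 1 and squares replicate 2. The Rnf43 to Myc ratio is 2.98 and 3.27 at ZT12 and between 1.07 and 2.16 in the other libraries.

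The progenitor and cell cycle genes Sox9 and Ccnd1 varied mainly between replicates. Sox9 (chr11:112782224-112787760, plus strand) encodes a transcription factor of crypt progenitors. In Sox9 the ZT0 libraries had 868 and 1524 normalised counts, those of ZT6 1205 and 1165, those of ZT12 1045 and 1438, and those of ZT18 1994 and 1013. The range within ZT18, 1.97-fold, and within ZT0, 1.76-fold, exceeded the largest difference between time point means. Its amplitude was 0.14 ± 0.17 (SE, log2; adjusted p = 0.903). Ccnd1 (chr7:144929931-144939925, minus strand) encodes cyclin D1, which takes cells from G1 into S phase. In Ccnd1 the ZT0 libraries had 552 and 449.6 normalised counts, those of ZT6 389 and 441, those of ZT12 549 and 475, and those of ZT18 379 and 610.4.

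The Ccnd1 libraries of ZT18 were the lowest and the highest of the 8. Its amplitude was the smallest of the 10, 0.11 ± 0.13 (SE, log2; adjusted p = 0.896). Over the libraries Ccnd1 had an r of -0.81 with the share of mitochondrial reads, which was 22.2% in ZT18 replicate 1 and 9.80% in ZT18 replicate 2, and its part in the values was not tested. Sox9 and Ccnd1 had an r of -0.75 with each other, and Myc and Rnf43 one of -0.87, as descriptions over 8 libraries that share the time points. Exons of LTO1 overlap those of Ccnd1 on the opposite strand, so reads from the shared stretch could not be told apart without strand.

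**Figure D4:**
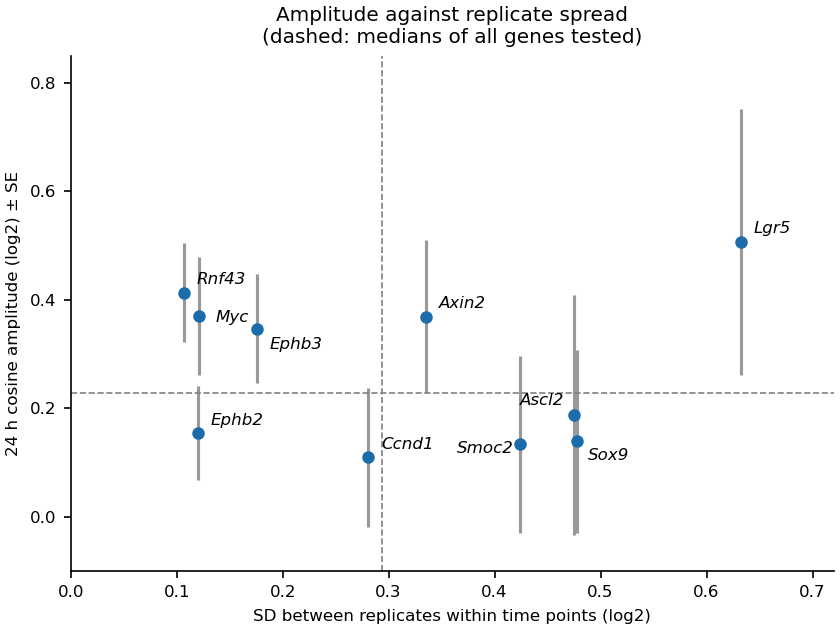
Amplitude of the fitted 24 h cosine with its SE (y axis, log2) against the SD between replicates within time points (x axis, log2) for the 10 genes. The dashed lines are the medians over all 13503 genes tested, 0.29 for the SD and 0.23 for the amplitude. Rnf43, Myc and Ephb3 combine an amplitude above the median with a spread below it, whereas Lgr5 has the largest of both.

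The SD within time points had a median of 0.31 (log2) over the 10 genes and 0.29 over all genes tested, and the median amplitude was 0.27 for the 10 and 0.23 for all. Of the 60 differences between time points (10 genes in 6 comparisons), 0 passed the adjusted threshold, with a smallest adjusted p of 0.310. At an unadjusted p under 0.05 there were 8, in Rnf43, Myc, Ephb3 and Axin2. The 95% intervals had a median half-width of 0.62 on the log2 scale, a 1.53-fold change, and 36 of 60 lay within a 2-fold change in either direction. For Ephb2, ZT12 against ZT0, the interval of the fold was 0.852 to 1.45, and for Ccnd1 it was 0.684 to 1.53. The corresponding interval for Ascl2 was 0.606 to 2.57, so that a doubling of Ascl2 lay within it.

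Counted by libraries that do not overlap between 2 time points, 4 to 6 of the 10 members stood apart in each comparison, against 27.5% to 45.7% of all genes. From ZT0 to ZT12, 5 of 10 did not overlap (Lgr5 and Rnf43 higher, Axin2, Ephb3 and Myc lower), against 41.1% of all genes. From ZT0 to ZT6 it was 6 of 10 against 37.6%, from ZT0 to ZT18 4 of 10 against 27.5%, and from ZT6 to ZT12 5 of 10 against 45.7%. From ZT12 to ZT18 it was 4 of 10 against 36.4%, with Myc higher and Smoc2, Ephb2 and Rnf43 lower. The least even split was from ZT6 to ZT18, where Axin2, Smoc2, Ephb2, Ephb3 and Rnf43 were lower and Myc higher, 6 of 10 against 38.0%. The median log2 difference of the 10 was -0.24 there, against -0.01 over all genes, and it was 0.12 against 0.01 from ZT0 to ZT12. At an adjusted p under 0.05, the limma contrasts called 0.0444%, 0.0667%, 0%, 0%, 0.0444% and 0.0296% of all genes for ZT6, ZT12 and ZT18 against ZT0, ZT12 and ZT18 against ZT6 and ZT18 against ZT12, and 0 members in each. At an unadjusted p under 0.05 the same 6 contrasts held 0, 3, 1, 0, 2 and 2 of the 10 members, against 4.13%, 9.96%, 5.02%, 6.78%, 6.71% and 9.03% of all genes.

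The rest of the Wnt pathway and the other stem cell markers were read from 5 lists with 82 genes tested. Of these, 0 were called in any comparison and 8 (9.76%) had an unadjusted cosine p under 0.05, against 9.15% of all genes. In the list of other target and feedback genes, 13 were tested and 4 reached that p: Tiam1, Jun, Znrf3 and Wif1. Their fitted peaks differed, at 17.4 h for Tiam1, 22.7 h for Jun, 12.1 h for Znrf3 and 8.27 h for Wif1. Tiam1 had the smallest p of the list (amplitude 0.69, adjusted p = 0.314), with a ZT18 against ZT6 estimate of +1.37 (adjusted p = 0.408). Wif1 was low, with 0 to 30.0 normalised counts. The most abundant per kb were Cdx1, an intestinal homeobox gene (4611 normalised counts per kb, amplitude 0.18, adjusted p = 0.751), Jun, an AP-1 factor (760.4 per kb, amplitude 0.42, adjusted p = 0.397), and Ccnd2, cyclin D2 (218 per kb, amplitude 0.13, adjusted p = 0.904). Jun had its lowest values at ZT12, 1463 and 1936 against 2163 to 3100.0 in the 6 other libraries, and so shared with Myc the time point of its minimum. Low values at ZT12 were not particular to Wnt targets. Of 12 early response genes, which rise during tissue handling, 10 had a negative estimate from ZT0 to ZT12 (median -0.38, against 0.01 over all genes).

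Znrf3, the paralogue of Rnf43 and also a ligase that removes Frizzled, was looked at after its values were seen. In Znrf3 the ZT0 libraries had 89.4 and 125 normalised counts, those of ZT6 158 and 119.7, those of ZT12 243 and 186, and those of ZT18 127 and 152. As for Rnf43, both ZT12 libraries were above the 6 others. Its estimate from ZT0 to ZT12 was +1.00 (log2; adjusted p = 0.390) and its amplitude was 0.50 with a fitted peak at 12.1 h (adjusted p = 0.510).

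Of 25 genes for Wnt ligands, R-spondins and their secretion, 8 were in the table and 7 were tested, with 0 at an unadjusted cosine p under 0.05. The most abundant was Wls, the carrier of Wnt proteins to the cell surface, with 187 normalised counts per kb (amplitude 0.39, adjusted p = 0.625). It was followed by Porcn, which acylates Wnt proteins, with 14.6 per kb, and Wnt8b with 9.53 per kb. Wnt8b had 29.8, 28.0, 38.2 and 20.7 normalised counts at ZT0 and ZT6, 46.8 and 93.4 at ZT12 but 4.27 and 4.02 at ZT18, and its ZT18 against ZT12 difference had an adjusted p of 0.338.

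Of 16 receptors and modulators tested, 1 reached an unadjusted cosine p under 0.05. Fzd5, a Frizzled receptor, had 337 normalised counts per kb, the co-receptor Lrp6 292 and the receptor kinase Ryk 219, with amplitudes of 0.30, 0.06 and 0.17. Between ZT12 and ZT18, 14 of the 16 were lower at ZT18, with a median log2 difference of -0.43, against -0.02 over all genes. Of the 16, 0 were called, against 0.0296% of all genes. ZT12 replicate 1 was the highest library of this list and ZT18 replicate 1 the lowest, with median deviations of 0.43 and -0.34. Several other lists leaned the same way. Lower at ZT18 were 6 of 7 ligand genes (median -0.50), 9 of 12 Notch genes (-0.22) and 7 of 10 members (-0.22). So were 18 of 28 destruction complex and nuclear genes (-0.11). Higher were 8 of 10 epithelial markers and 9 of 15 mature colonocyte genes. The share of all genes lower at ZT18 was not counted.

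The 28 genes of the destruction complex, the dishevelled proteins and the nuclear factors included 2 at an unadjusted cosine p under 0.05. The most abundant were the corepressor gene Tle5, with 3670.2 normalised counts per kb, Ctnnb1, which encodes β-catenin, with 2164, and the corepressor gene Ctbp1, with 856. Their amplitudes were 0.08, 0.12 and 0.08. Ctnnb1 ranged from 9522 to 14103 normalised counts over the 8 libraries.

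Among 18 other stem and progenitor markers, 1 had an unadjusted cosine p under 0.05, against 9.15% of all genes. It was Hopx, with an amplitude of 0.43 and a fitted peak at 5.04 h (adjusted p = 0.494). Prom1, a membrane glycoprotein, had 1005 normalised counts per kb, the water channel gene Aqp4 936 and the growth factor gene Pdgfa 674, all far above Lgr5. Aqp4 was highest at ZT12, with 7769 and 8049.7 normalised counts against 3682 to 5994 in the 6 others (ZT12 against ZT0 +0.51, adjusted p = 0.489). Prom1 had another order, with its largest estimate against ZT0 at ZT18 (+0.64, adjusted p = 0.927). Of the 11 other Eph receptors and ephrins tested, the ephrin genes Efna1 (1191 per kb) and Efnb1 (662 per kb) and the receptor gene Ephb4 (376 per kb) were the most abundant, with amplitudes of 0.14, 0.18 and 0.08, and 1 of the 11 had an unadjusted cosine p under 0.05. Of 12 Notch pathway genes 0 did, and the most abundant were Atoh1 (545 per kb), a factor of secretory cells, the Notch target Hes1 (517 per kb) and Lfng (88.1 per kb), which encodes a glycosyltransferase acting on Notch.

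**Figure D5:**
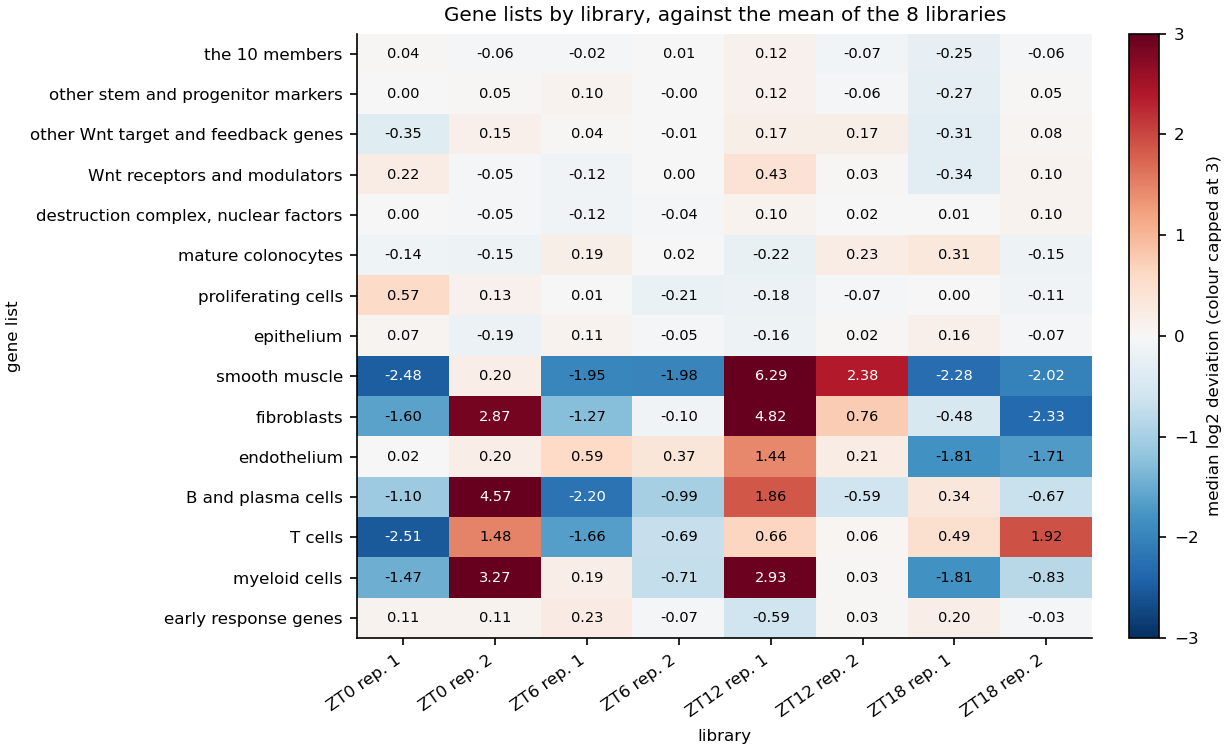
Median log2 deviation of each gene list (rows) in each of the 8 libraries (columns) from the mean of the libraries, printed in the cells and shown by colour, which is capped at 3. The 10 members lie between -0.25 and 0.12, and the smooth muscle list between -2.48 and 6.29, with both upper ends in ZT12 replicate 1.

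Epithelial markers were abundant in each library, with 10 of 10 above 0 and a sum of 240917 to 313112 normalised counts. The median deviation of that list from the mean of these libraries lay between -0.19 and 0.16. These values do not measure the share of other cells. Recovered reads ranged from 14722342 to 25159440, and the share of mitochondrial reads from 6.68% to 22.2%. That share was lowest in the ZT12 libraries, at 6.68% and 7.85%, against 9.80% to 22.2% in the others. Over the 8 libraries it had an r of -0.81 with Ccnd1, -0.61 with Lgr5, 0.56 with Sox9, 0.53 with Myc and -0.50 with Rnf43. The part of the mitochondrial share in these values was not tested. Markers of other cells stood apart in ZT12 replicate 1 and ZT0 replicate 2. The 6 smooth muscle markers in the table, Acta2, Myl9 and Actg2 among them, summed to 4049.5 normalised counts in ZT12 replicate 1, 257 in ZT12 replicate 2 and 6.95 to 98.9 in the others, where 5 of 6 were at 0 in ZT0 replicate 1. Fibroblast markers were at 0 for 3 to 5 of 10 genes in the 5 libraries other than ZT0 replicate 2 and both of ZT12. B and plasma cell, and myeloid markers were highest in ZT0 replicate 2, with medians of 4.57 and 3.27. T cell markers summed to between 14.9 and 213 normalised counts, and mature colonocyte genes deviated by -0.22 to 0.31. In the marker lists 1 gene was called, the endothelial Pecam1, with 24.8 and 26.5 normalised counts at ZT18 against 271 and 179.9 at ZT12 (limma adjusted p = 0.0420).

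These lists moved with some of the 10 genes. Over the 8 libraries Rnf43 had an r of 0.81 with the smooth muscle list and -0.72 with the early response genes, which rise during tissue handling. Myc had -0.71 with smooth muscle, -0.78 with the endothelial list and 0.53 with the early response genes. The early response list was lowest in ZT12 replicate 1, with a median deviation of -0.59, against 0.03 in ZT12 replicate 2. With ZT12 replicate 1 and ZT0 replicate 2 both left out, Rnf43 from ZT0 to ZT12 was +0.72, Ephb3 -0.90 and Myc -0.67. Under the same omission Lgr5 was +0.08, down from +0.96. The omission did not even out the smooth muscle markers, which summed to 257 normalised counts in ZT12 replicate 2 and 6.95 in ZT0 replicate 1. Their level and the time of day could therefore not be told apart, and the part of these lists in the values was not tested. Scaled to the epithelial markers alone, Rnf43 was +0.78, Ephb3 -0.63, Myc -0.55 and Lgr5 +0.97.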

How the data were processed

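The libraries were made from colonic crypts (EDTA, scraping and a cell strainer, per the methods), sequenced as paired ends, aligned by the authors with STAR to GRCm38, and analysed with DESeq2. The read counter, its annotation and its use of strand are not given in the sources used here, and labels and methods name different library kits. The authors deposited a signal per gene and library: read counts divided by a DESeq2 size factor. The other deposited columns hold the authors' mean and their own comparison (log2 fold change with its standard error, test score, p-value and adjusted p-value). These were not used. Low values step by the worth of 1 read, which gave back the reads (100% of values whole in each library, 14722342 to 25159440 reads per library). A count of 0 allows up to 3 reads, 2.41 to 3.70 normalised counts. Such limits cover counting error only.

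Genes with a mean of at least 10 normalised counts (13503 of 14247) were fitted with limma 3.58.1 (R 4.3.3, empirical Bayes, variance trended on the mean) on log2 of the normalised count plus 1, all 8 libraries in 1 fit. Fold changes on that scale understate the change of low genes. The tests were a 24 h cosine, an F-test over time points, 6 contrasts and an exact 2-sided Kendall-type rank test against 4 cosine orders. Benjamini-Hochberg adjustment ran over all genes tested, with a threshold of 0.05. Scripts were tested on simulated data.

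The members and the gene lists were chosen with earlier results of these data known. Named genes were the 10 members, the called genes of each other list, and in the pathway lists the 3 genes with the most normalised counts per kb of exon (GENCODE M21, 14239 of 14247 identifiers matched), with the 3 genes most correlated with Lgr5 and with Axin2. In the marker lists only the genes a result turned on are named. Alternatives were TMM scaling, scaling without mitochondrial genes or to epithelial markers, a pseudocount of 0.5 or 5, no filter, a mean of at least 50, no trend, a replicate block, leaving out each library, and edgeR 4.0.16 and DESeq2 1.42.0 on the recovered reads, which called 12 and 184 genes in the cosine fit, against 16 by limma. A fit without both libraries high in stromal and immune markers was added after seeing the data. Promoter sequences were from RefSeq (GRCm38.p6).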

Additional observations from a re-analysis of the deposited data

How the results depend on the processing

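The number of members called was 0 in each of the 9 tests under all alternatives run, with 2 exceptions: DESeq2 on the recovered reads called 1 member, Rnf43, in the cosine fit and 1, again Rnf43, for ZT12 against ZT0, and the cause was not tested. Of the 60 differences between time points, 31 kept their direction under all 20 alternatives and 29 changed it under at least 1, the largest of the latter being 0.56 on the log2 scale (Lgr5, ZT18 against ZT12). Only 7 changed under an alternative that kept all libraries. For ZT12 against ZT0, Smoc2 (+0.14) became -0.34 without ZT0 replicate 2, -0.18 without ZT12 replicate 1 and -0.67 without both (leaving out 1 library gave -0.34 to 0.63), and Ephb2 (+0.15) became -0.040 without both. Sox9 (+0.09) became -0.31 without ZT0 replicate 1 and -0.14 without ZT12 replicate 2 (range -0.31 to 0.50). Ccnd1 (+0.03) became -0.0004444 with scaling outside the mitochondrial genome, -0.11 without ZT0 replicate 2, -0.069 without ZT12 replicate 1 and -0.22 without both (range -0.11 to 0.18). Fewer libraries were the only change in all but the scaling alternative, and a lone library was assumed to vary like the others. Scaling to epithelial markers moved the median of all genes by over 0.1 in 2 contrasts, to -0.11 from ZT0 to ZT18 and to -0.14 from ZT12 to ZT18. A replicate block called 0 members in each test (Rnf43 cosine, limma adjusted p = 0.488). Same-numbered libraries had correlations of their deviations from -0.29 to 0.22, so the numbers did not pair the libraries.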

Other observations

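Profiles over the 8 libraries were compared among the 11088 genes with a mean of at least 50, less those in the gene lists. The genes most like Lgr5 were Zmym2 (r = 0.98), Mtmr6 (0.98) and Rnf219 (0.98). Those most like Axin2 were Gba2 (0.97), Slc43a1 (0.97) and 1700010I14Rik (0.96). These are Pearson correlations of log2 values, the highest of many, over libraries that share time points and size factors, and they carry no test. The member most correlated with Lgr5 was Rnf43 (r = 0.58), and the one most correlated with Axin2 was Ephb3 (r = 0.48).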
